A study of Homo sapiens with 12 samples.

Results

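RBPJ, MAML1, MAML3, SNW1, CTBP2 and HES1 are the genes of the nuclear end of Notch signaling examined here. They were chosen by symbol, as the DNA-binding partner of Notch, proteins that join or oppose it on chromatin, and a target gene it controls, and they are 6 of the 199 genes on the NanoString Stem Cell Panel. LX-2 cells, an immortalised human hepatic stellate cell line, had been transfected with 10 pmol/ml of a miR-25 mimic, a small RNA duplex that acts as the mature miRNA, or with a negative control mimic built on a Caenorhabditis elegans sequence. RNA was taken 24 h or 48 h later, and each of the 4 groups (control and miR-25 at 24 h, control and miR-25 at 48 h) held 3 samples, which makes 12 in all. A control and a miR-25 sample with the same label letter, here given as replicate 1, 2 or 3, at one time point shared 1 labelled transfected fraction and were treated as a pair, whereas the fractions at 24 h and 48 h differed for each of them. Per the paper, the fraction came from a parallel well of each plate given a fluorescein-labelled control miRNA, not from the samples themselves. All samples came from 1 cell line, so the p-values measure the spread between these samples of that line. No sample was taken before transfection or without a mimic, so a difference between 48 h and 24 h describes transfected cells only.

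Notch receptors are cut when a neighbouring cell presents a ligand, and the freed intracellular domain enters the nucleus. There it meets RBPJ, which sits on target promoters with corepressors, and a Mastermind protein (MAML1, MAML2 or MAML3) locks onto the pair and recruits histone acetyltransferases, so that genes such as HES1 are switched on. In the liver, Notch signaling is known for its part in bile duct formation and in the activation of stellate cells, the cells that lay down scar collagen.

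The sequences below show what was introduced, what was counted for the genes that the results turn on, and the bases before the start of HES1. Human miR-25-3p lies on the minus strand of chr7:100093571-100093592 (GRCh38.p14, RefSeq), and its 22 bases are given with the seed, bases 2 to 8, in capitals:
hsa-miR-25-3p: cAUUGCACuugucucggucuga
The same seed is carried by 6 mature human miRNAs of the RefSeq table, among them hsa-miR-32-5p, hsa-miR-92a-3p and hsa-miR-363-3p.

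Each gene was counted through 1 target region of 100 bases, to which a capture and a reporter probe bind side by side. The regions of RBPJ, of both Mastermind genes and of HES1 are printed in full, because the values of these genes differed most between samples or times:
RBPJ: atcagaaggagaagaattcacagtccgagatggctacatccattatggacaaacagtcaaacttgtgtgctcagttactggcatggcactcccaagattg
MAML1: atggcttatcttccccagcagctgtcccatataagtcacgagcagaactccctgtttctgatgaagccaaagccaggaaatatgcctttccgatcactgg
MAML3: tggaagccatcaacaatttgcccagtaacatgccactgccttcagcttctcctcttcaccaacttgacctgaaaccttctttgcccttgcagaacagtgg
HES1: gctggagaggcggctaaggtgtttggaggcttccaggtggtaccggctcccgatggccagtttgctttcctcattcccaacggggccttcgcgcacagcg
The longest run of bases shared by any 2 of the 6 regions was 9 bases, over the 15 pairs of regions, and MAML1 and MAML3, which are paralogs, shared at most 7. Processed pseudogenes of RBPJ exist, and whether its probes also count a transcript of one was not tested.

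The region of CTBP2 was the one among the 6 that held the letters TGCAAT, which pair with bases 2 to 7 of miR-25, and 30 bases around them are shown with the letters in capitals:
CTBP2: ccatccttaagaTGCAATggtgggttagtg
These letters occurred in 3 (1.55%) of the 193 target regions read from the panel sheet, on the transcript strand, and the letters GTGCAAT, which pair with bases 2 to 8 and contain the shorter run, occurred in 0 of 193. Such a match describes the counted stretch of 100 bases alone and says nothing about the rest of the transcript.

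RBPJ is known to recognise the letters TGGGAA. The 250 bases before the RefSeq start of HES1, chr3:194135898-194136147 on the plus strand (GRCh38.p14), are printed with each occurrence on either strand in capitals:
HES1 promoter: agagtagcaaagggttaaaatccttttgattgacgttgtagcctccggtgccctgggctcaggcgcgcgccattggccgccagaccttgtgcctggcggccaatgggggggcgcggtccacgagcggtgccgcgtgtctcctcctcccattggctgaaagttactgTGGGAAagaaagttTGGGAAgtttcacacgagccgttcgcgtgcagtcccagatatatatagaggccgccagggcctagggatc
Both occurrences lay on the plus strand, with 8 bases between them, the first beginning 84 bases and the second 70 bases before the start. Only these exact letters and their complement were searched, and other forms of the RBPJ site were not. The capitals therefore do not mark which bases RBPJ binds here, and the 2 occurrences are not to be read as a known pair of sites. Of 35116 promoter windows of the same length, 7321 (20.8%) held the letters or their complement TTCCCA at least once and 1017 (2.90%) held 2 or more.

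The depth of the assay fell between the time points. The sources used here do not say whether the 24 h and 48 h samples were run together, so time and assay run cannot be told apart in any difference between 48 h and 24 h. The summed count of the 199 genes was 321243 to 409581 per sample at 24 h and 107377 to 200821 at 48 h, although 50 ng of RNA was hybridised each time, and the summed positive control probes also fell, from 76248 to 87475 down to 51306 to 59004. A level below is therefore a count per 100000 of that sample's gene counts, a share and not an amount per cell. As the RNA input was equal, neither the number of cells nor the RNA per cell can be read from it. All 5 stellate or fibroblast-like markers on the panel stood above background in every sample. Their lowest count was 323, for CXCL12, whose median count was 8601. Against replicates 2 and 3 at 48 h, replicate 1 held CXCL12 at -3.27 log2 in control and -3.84 in miR-25 samples. COL1A1 was at -1.15 and -1.59 there, while CDH2, CD44 and FGF2 were higher in replicate 1. Of 15 markers of T cells, epithelium, endoderm, pluripotent cells and muscle, 1 (POU5F1) exceeded background in all 12 samples, 9 did so in some and 5 in none. Per the labels, miR-25 was raised 62.3-, 192.5- and 350.1-fold over control in pairs 1, 2 and 3 at 24 h, and 347.4-, 482.4- and 681.2-fold at 48 h, and the transfected fraction of cells was 0.59, 0.75 and 0.81 at 24 h and 0.42, 0.61 and 0.65 at 48 h.

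At 48 h, replicate 1 stood apart from replicates 2 and 3 in both treatments. A chi-square test of gene counts gave 46.0 to 64.5 per degree of freedom for pairs of samples with 48 h replicate 1, against 2.32 to 3.64 for replicates 2 and 3. The same was so to a lesser degree at 24 h, with 10.3 to 13.0 for pairs with replicate 1 against 2.57 and 2.74 for replicates 2 and 3. The pair with replicate 1 had the lowest transfected fraction (0.42) and its control sample the lowest total (107377 counts). No library was left out of the tests, and values without replicate 1 at 48 h are given beside each result that turns on it.

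All 6 genes were counted above background in 12 of 12 samples, where background is the mean of the 8 negative probes of a sample plus 2 of their SDs. The nearest to it was MAML3 in control 48 h replicate 1, with 15 counts or 2.04 times background. Mean counts were 2695.5 for RBPJ (NM_015874.3), 386 for MAML1 (NM_014757.4), 61.9 for MAML3 (NM_018717.4), 381 for SNW1 (NM_012245.2), 175 for CTBP2 (NM_001329.2) and 108.0 for HES1 (NM_005524.2). Probes differ in efficiency, so these counts set the precision of each gene and do not rank the genes by abundance.

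RBPJ, the DNA-binding protein of the complex, was lower at 48 h than at 24 h in both treatments. Its level was 1153, 1104 and 1126 per 100000 in control replicates 1, 2 and 3 at 24 h, and 779, 809 and 833 at 48 h. In the miR-25 samples it was 1134, 1117 and 1070 at 24 h and 665, 805 and 767 at 48 h. Every 48 h value lay below every 24 h value in either treatment, as it did for 14% of the 136 tested genes in control samples and 22.1% in miR-25 samples. By edgeR's quasi-likelihood test the level fell to 0.716 of the 24 h level in control samples (95% interval 0.621 to 0.824, adjusted p = 0.0170, n = 3 per time point). In miR-25 samples it fell to 0.674 (95% interval 0.567 to 0.800, adjusted p = 0.0260), which makes the log2 changes -0.48 (SE 0.086) and -0.57 (SE 0.11). Called lower were 2.21% of tested genes in control samples and 4.41% in miR-25 samples, and RBPJ was the single one of the 6 genes among them. The exact permutation test of 3 samples against 3 gave p = 0.1 in both treatments, the smallest it can give. As control and miR-25 samples were paired, the result in the second treatment is not independent of the first.

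The size of the RBPJ change was steadier than its call. It ranged from -0.46 to -0.50 on the log2 scale in control samples and from -0.49 to -0.63 in miR-25 samples as each sample was left out in turn. In control samples the adjusted p exceeded the threshold without 24 h replicate 1 (0.0900), 2 (0.119) or 3 (0.120) or 48 h replicate 2 (0.0886). In miR-25 samples it did so without 24 h replicate 1 (0.0964), 2 (0.120) or 3 (0.128) or 48 h replicate 2 (0.0831) or 3 (0.0658). Without 48 h replicate 1, the adjusted p by edgeR's quasi-likelihood test was 5.55e-04 in control samples and 3.05e-04 in miR-25 samples, at log2 changes of -0.46 and -0.49. The share of tested genes called lower was then 12.5% in control and 17.6% in miR-25 samples, against 2.21% and 4.41% with all samples. The smaller adjusted p thus came without a larger change and with more calls across the panel.

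**Figure D1:**
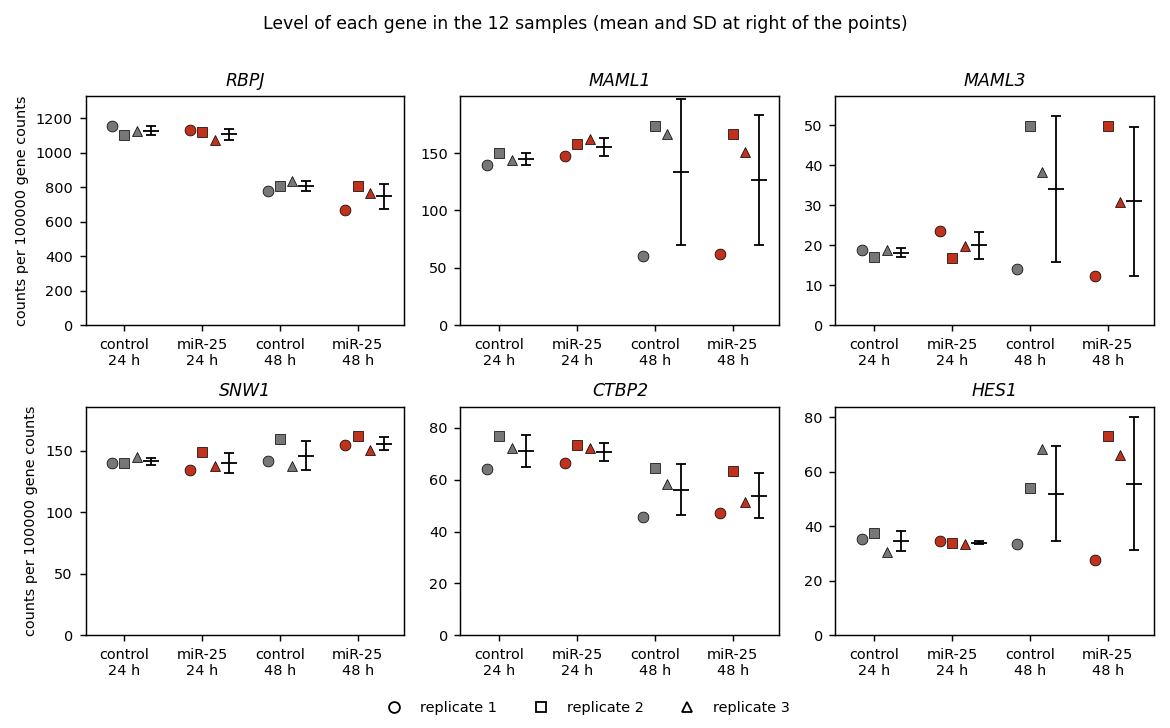
Level of each gene (counts per 100000 gene counts of the sample, vertical axis from 0) in the 4 groups. Points are samples, their shape gives the replicate, and the bar beside them is the mean with its SD (n = 3). RBPJ sat between 1070 and 1153 at 24 h and between 665 and 833 at 48 h, whereas MAML1, MAML3 and HES1 at 48 h divided into a low replicate 1 and higher replicates 2 and 3.

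HES1, a transcriptional repressor and one of the best known direct Notch targets, had a higher mean at 48 h in both treatments, the direction opposite to RBPJ, but its 48 h samples were divided. In control samples the HES1 level was 35.4, 37.6 and 30.5 per 100000 at 24 h and 33.5, 54.0 and 68.2 at 48 h in replicates 1, 2 and 3. In miR-25 samples it was 34.7, 33.9 and 33.5 at 24 h and 27.7, 72.9 and 66.2 at 48 h. In both treatments replicates 2 and 3 at 48 h lay above every 24 h sample, and replicate 1 did not, so the groups overlapped. With all samples, the fold of 48 h over 24 h was 1.53 in control samples (95% interval 1.018 to 2.30, adjusted p = 0.139 by edgeR's quasi-likelihood test) and 1.64 in miR-25 samples (0.966 to 2.79, adjusted p = 0.186), so neither passed. The exact permutation test gave p = 0.3 and p = 0.4. Without 48 h replicate 1 the folds were 1.78 (1.37 to 2.32, adjusted p = 0.00456) and 2.04 (1.67 to 2.49, adjusted p = 3.05e-04). In that setting 27.2% of tested genes were called higher in control samples and 27.9% in miR-25 samples, where with all samples 2.94% were called higher in each, so a call of HES1 without that library is one of many on the panel.

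MAML1, a Mastermind coactivator, split the 48 h samples more sharply than it split the times. Its level was 140, 150 and 144 per 100000 in control samples at 24 h, then 60.5, 173 and 167 at 48 h. The miR-25 samples held 147, 157 and 162, then 61.8, 167 and 151. Replicate 1 at 48 h held the lowest MAML1 level of each treatment, less than any 24 h sample, while in control samples replicates 2 and 3 exceeded all 24 h samples. The fold of 48 h over 24 h was 0.936 (95% interval 0.543 to 1.61, adjusted p = 0.829 by edgeR's quasi-likelihood test) in control samples and 0.816 (0.484 to 1.38, adjusted p = 0.560) in miR-25 samples. Without 48 h replicate 1 the direction turned, to 1.18 (0.996 to 1.39, adjusted p = 0.0967) and 1.019 (0.875 to 1.19, adjusted p = 0.845), and it did not pass.

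MAML3, a Mastermind paralog with the lowest counts of the 6, showed the widest spread of them at 48 h. Its level was 18.8, 16.9 and 18.7 per 100000 in control samples at 24 h and 14.0, 49.7 and 38.2 at 48 h. With miR-25 it was 23.4, 16.7 and 19.9 at 24 h and 12.2, 49.7 and 30.9 at 48 h. The highest 48 h sample exceeded the lowest 3.47-fold in control and 3.98-fold in miR-25 samples, the 4th widest range of 136 genes in either treatment, against a median range of 1.33- and 1.34-fold. With all samples the fold of 48 h over 24 h was 1.91 in control samples (95% interval 1.03 to 3.55, adjusted p = 0.139 by edgeR's quasi-likelihood test) and 1.55 in miR-25 samples (0.754 to 3.17, adjusted p = 0.374). Without 48 h replicate 1 these were 2.39 (1.82 to 3.16, adjusted p = 6.92e-04) and 1.97 (1.36 to 2.86, adjusted p = 0.00914). In that setting 3 of the 6 genes were called in each treatment, MAML3 and HES1 among the 27.2% and 27.9% of tested genes called higher, and RBPJ among the 12.5% in control and 17.6% in miR-25 samples called lower.

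SNW1, also known as SKIP, a splicing and transcription cofactor that contacts RBPJ and the Notch intracellular domain, kept a level between 134 and 162 per 100000 in all 12 samples. It was 140, 140 and 145 in control samples at 24 h and 142, 159 and 138 at 48 h. With miR-25, SNW1 stood at 134, 149 and 137 at 24 h and at 155, 162 and 151 at 48 h. The miR-25 samples at 48 h all lay above those at 24 h, as 19.1% of tested genes did, while the control groups overlapped and 21.3% of tested genes lay above without overlap there. The fold of 48 h over 24 h was 1.03 (95% interval 0.865 to 1.23, adjusted p = 0.769 by edgeR's quasi-likelihood test) and 1.11 (0.948 to 1.30, adjusted p = 0.342), so at this depth any change of the SNW1 share was bounded by these intervals. Replicate 1 at 48 h was no exception here, at 0.958 and 0.990 of the mean of the other samples.

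CTBP2, a corepressor that RBPJ complexes can hold on silent targets, was lower at 48 h on average and passed in neither treatment. Its level was 64.3, 76.7 and 72.2 per 100000 in control samples at 24 h and 45.6, 64.7 and 58.4 at 48 h, and the ranges overlapped only between 64.3 and 64.7. In miR-25 samples it was 66.7, 73.5 and 72.1 at 24 h and 47.0, 63.5 and 51.3 at 48 h, without overlap, as for 22.1% of tested genes. The fold was 0.797 (95% interval 0.611 to 1.04, adjusted p = 0.202 by edgeR's quasi-likelihood test) in control and 0.762 (0.599 to 0.969, adjusted p = 0.130) in miR-25 samples.

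Scaling decides what these folds are relative to. When the counts were scaled to the summed positive control probes in place of the gene total, the median of all tested genes moved by -0.77 on the log2 scale in control samples and -0.55 in miR-25 samples. RBPJ then fell by 1.24 and 1.13 and CTBP2 by 1.07 and 0.96, all of them called (adjusted p = 0.0160, 0.00766, 0.0405 and 0.0154 by edgeR's quasi-likelihood test), beside medians of -0.64 and -0.46 for all tested genes. On that scale HES1 was at -0.08 in control samples, a turned direction, and at 0.19 in miR-25 samples, and SNW1 turned to -0.73 and -0.42. RBPJ lay below and HES1 above the median of the panel on either scale. A change of scale moves all genes by nearly the same amount, so this is not a separate result.

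**Figure D2:**
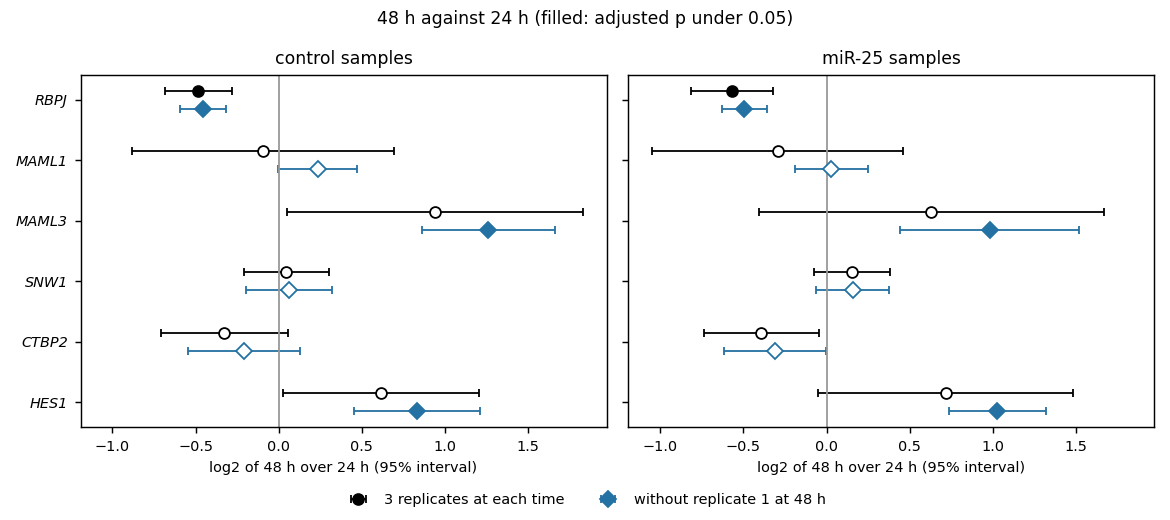
Log2 of the 48 h over the 24 h level of each gene with its 95% interval, in control samples (left) and miR-25 samples (right). Circles use 3 replicates at each time and diamonds leave out replicate 1 at 48 h, and filled symbols have an adjusted p under 0.05. RBPJ was filled and below 0 in all cases (-0.48 and -0.57 with all samples), and HES1 and MAML3 were filled only without replicate 1.

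Ordered by group means, RBPJ ran from control 24 h (1128 ± 24.9 per 100000, SD, n = 3) to miR-25 24 h (1107 ± 32.8), control 48 h (807 ± 27.4) and miR-25 48 h (746 ± 72.6). The step between the time points was the one that exceeded the spread, and the treatments within a time point overlapped. HES1 ran from miR-25 24 h (34.0 ± 0.61) and control 24 h (34.5 ± 3.6) to control 48 h (51.9 ± 17.4) and miR-25 48 h (55.6 ± 24.4), and the ranges of all neighbours in that order overlapped. They also overlapped for MAML1, whose highest mean was 156 ± 7.8 in miR-25 samples at 24 h and whose lowest was 126 ± 56.5 in miR-25 samples at 48 h.

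How far replicate 1 at 48 h departed depended on the gene. Relative to the mean of replicates 2 and 3 it held 0.358 of MAML1, 0.329 of MAML3 and 0.557 of HES1 in control samples, and 0.391, 0.318 and 0.401 in miR-25 samples. RBPJ stood at 0.949 and 0.846, and CTBP2 at 0.747 and 0.825. Levels under 0.5 of the other replicates were found for 2 of the 6 genes in control samples (MAML1 and MAML3) and 3 of 6 in miR-25 samples (those and HES1), compared with 11% and 10.3% of all tested genes. At 24 h no tested gene was under 0.5. Whether the transfected fraction or the total of that pair has a part in these values was not tested.

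**Figure D3:**
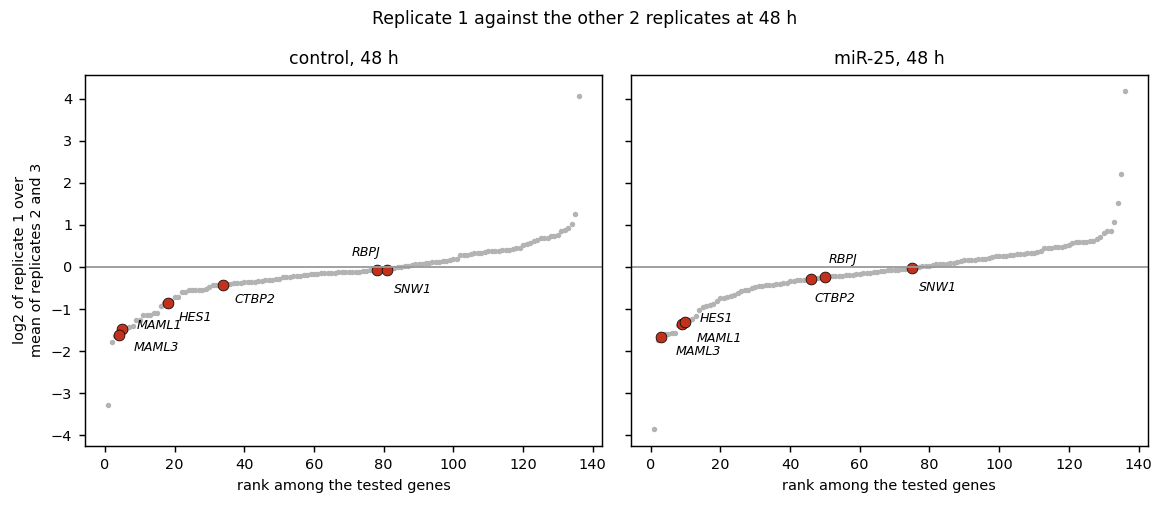
Log2 of the level in replicate 1 over the mean of replicates 2 and 3 at 48 h, for the 136 tested genes in rank order (grey) with the 6 genes in red, in control samples (left) and miR-25 samples (right). MAML1 and MAML3 lay at the low end in both panels, and RBPJ and SNW1 near 0.

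A count within one sample needs no scaling, so the genes were also read per 1000 RBPJ counts of the same sample. HES1 was 30.6 ± 3.5 per 1000 RBPJ counts at 24 h and 63.9 ± 19.6 at 48 h in control samples (SD, n = 3), and 30.7 ± 0.48 and 72.8 ± 27.1 in miR-25 samples. On this measure all 48 h samples, replicate 1 included, lay above all 24 h samples (43.1 to 81.9 against 27.1 to 34.1 in control samples, and 41.6 to 90.6 against 30.4 to 31.3 in miR-25 samples), with an exact permutation p = 0.1, the smallest possible. SNW1 also separated without overlap, from 126 ± 3.7 to 181 ± 15.9 and from 127 ± 7.7 to 210 ± 19.6. MAML3 separated in control samples (15.3 to 16.6 against 17.9 to 61.5) and overlapped in miR-25 samples, and MAML1 and CTBP2 overlapped in both. As RBPJ itself fell, 68.9% of the other 135 genes in control samples and 68.1% in miR-25 samples did likewise, so such a separation was shared by most of the panel.

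The question of the transfection was what miR-25 changed. None of the 6 genes was called at either time, over both times, or in the difference between the times. Called in edgeR's quasi-likelihood test were 0% of tested genes at 24 h (0 of 136, although 9 had an unadjusted p under 0.05, and 0 by DESeq2), 0.735% at 48 h (1 gene, FGF1), 0% over both times (21 at an unadjusted p under 0.05) and 0% for the difference, where 8 had an unadjusted p under 0.05 and DESeq2 made 1 call.

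RBPJ had the smallest p of the 6 at 48 h. The miR-25 to control ratio of RBPJ was 0.983, 1.01 and 0.950 in pairs 1, 2 and 3 at 24 h and 0.854, 0.996 and 0.921 at 48 h. It was below 1 in 3 of 3 pairs at 48 h, although barely so in pair 2. The fold at 48 h was 0.924 (95% interval 0.860 to 0.994, adjusted p = 0.327 by edgeR's quasi-likelihood test), its unadjusted p was 0.0360 in that fit, and 12.5% of tested genes had an unadjusted p under 0.05 there. The exact sign-flip test over the 6 pairs of both times gave p = 0.0938, where the smallest it can give is 0.0312, and the fit over both times gave a fold of 0.957 (0.911 to 1.00). The log2 effect at 48 h was -0.07 without 48 h replicate 1 (adjusted p = 0.785 by edgeR's quasi-likelihood test), beside -0.11 with all pairs. Scaled to the positive control probes, the RBPJ effect at 48 h turned to 0.17 on the log2 scale (adjusted p = 0.228 by edgeR's quasi-likelihood test). The median of all tested genes was 0.27 on that scale. Such scaling moves all genes by nearly the same amount, so the place of RBPJ below the median is not a separate result.

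The Mastermind ratios lay on either side of 1. MAML1 had ratios of 1.05, 1.05 and 1.13 at 24 h, above 1 in 3 of 3 pairs, and 1.021, 0.961 and 0.904 at 48 h. Its fold was 1.07 (95% interval 0.989 to 1.17) at 24 h and 0.943 (0.839 to 1.06) at 48 h, and the difference of the 2 effects was -0.19 on the log2 scale (SE 0.096, adjusted p = 0.631 by edgeR's quasi-likelihood test). MAML3 had ratios of 1.25, 0.987 and 1.06 at 24 h and 0.876, 0.999 and 0.808 at 48 h, with folds of 1.11 (0.918 to 1.34) and 0.901 (0.724 to 1.12).

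The ratios of SNW1 and CTBP2 lay between 0.878 and 1.10. SNW1 had 0.958, 1.07 and 0.947 at 24 h and 1.09, 1.015 and 1.10 at 48 h, with a fold of 1.07 (95% interval 0.952 to 1.20) at 48 h. CTBP2, whose counted region carried the TGCAAT letters printed above, had 1.04, 0.957 and 0.998 at 24 h and 1.03, 0.982 and 0.878 at 48 h, with folds of 0.997 (0.901 to 1.10) and 0.950 (0.806 to 1.12). HES1 varied more between pairs, with ratios of 0.9805, 0.901 and 1.10 in the 24 h pairs and of 0.826, 1.35 and 0.971 in the 48 h pairs. Its fold at 48 h was 1.07 (0.875 to 1.30), so smaller changes in either direction could not be seen with these pairs.

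Over the 6 genes, MAML1 at 24 h and SNW1 at 48 h were above 1 in every pair, as 25.7% and 16.9% of tested genes were. None of the 6 was below 1 in every pair at 24 h (5.88% of tested genes), and RBPJ and MAML3 were at 48 h (18.4%). With 1 or 2 of 6 genes in each, they did not stand apart from the panel. With 3 pairs the exact sign-flip test cannot go below p = 0.25.

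**Figure D4:**
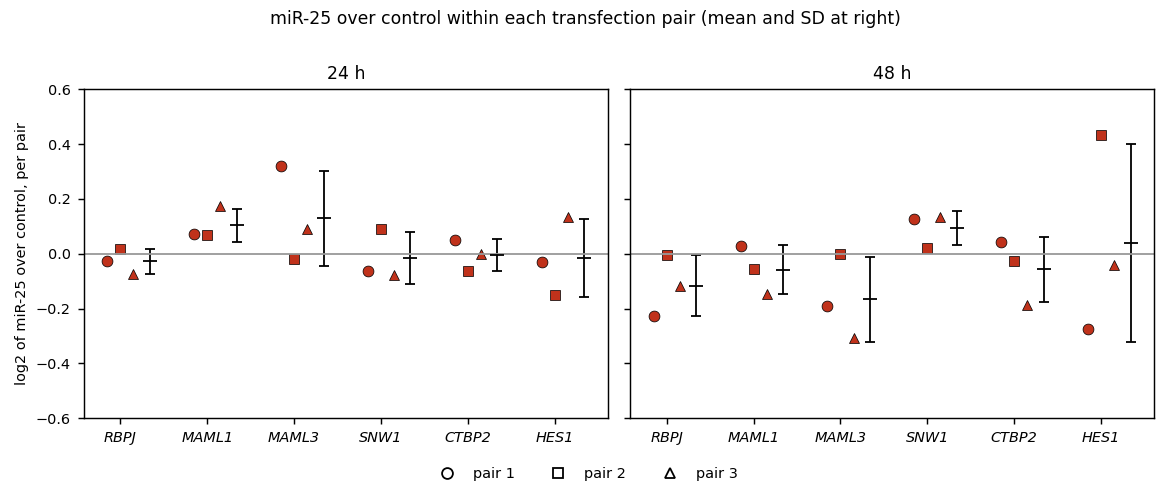
Log2 of the miR-25 over the control level within each pair at 24 h (left) and 48 h (right). Points are pairs, their shape gives the pair number, and the bar beside them is the mean with its SD (n = 3). At 48 h RBPJ and MAML3 lay below 0 and SNW1 above it in all pairs, the other genes fell on both sides, and HES1 at 48 h ran from a ratio of 0.826 to 1.35.

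Within the 12 samples, each gene was set against the other tested genes by the root mean square difference of centred log2 levels, a description over samples of 1 cell line that were partly paired. RBPJ was most like CDC42 (0.148 log2) and FZD7 (0.153), and CTBP2 ranked 3rd for it (0.154). MAML1 was most like MAPK9 (0.103) and ABCG2 (0.205), and MAML3 was most like CD4 (0.286) and GUSB (0.307), with HES1 3rd (0.311). SNW1 was most like MAP3K7 (0.069) and HDAC2 (0.070), CTBP2 most like CCNA2 (0.104) and CDC42 (0.116), and HES1 most like WNT5A (0.217) and COL1A1 (0.258). The 2 Mastermind genes stood 0.504 apart, where MAML1 ranked 21st for MAML3 and MAML3 ranked 62nd for MAML1. Both replicate 1 samples at 48 h enter these distances, which were not computed without them. Against the mean of replicates 2 and 3 in control samples, that replicate was at -1.48 log2 for MAML1 and -1.47 for MAPK9. ABCG2 stood there at -1.13, MAML3 at -1.60, CD4 at -1.78 and GUSB at -1.65, where CD4 had 6 counts in that replicate, below its background of 7.36. HES1 stood at -0.84, COL1A1 at -1.15 and WNT5A at -0.43.

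The other nuclear cofactors on the panel (among them MAML2, CTBP1, HDAC1, EP300 and TLE1) gave 0 calls among 11 tested in every comparison. For 48 h against 24 h, 4 of 11 had an unadjusted p under 0.05 in either treatment. Of all tested genes, 30.9% in control and 31.6% in miR-25 samples had one. The median log2 change of these cofactors over time was 0.03 in control and 0.07 in miR-25 samples, beside 0.13 and 0.09 for all tested genes and -0.03 and -0.07 for the 6 genes. HDAC1, a histone deacetylase of corepressor complexes, had the smallest p on the higher side, with log2 changes of 0.47 (SE 0.12, adjusted p = 0.0771 by edgeR's quasi-likelihood test) in control and 0.48 (SE 0.15, adjusted p = 0.0909) in miR-25 samples. On the lower side it was TLE1, a Groucho corepressor, in control samples (-0.39, SE 0.11, adjusted p = 0.0966) and EP300, an acetyltransferase recruited by Mastermind proteins, in miR-25 samples (-0.51, SE 0.16, adjusted p = 0.0955). Without 48 h replicate 1 the counts were 1 higher (HDAC1) and 1 lower (TLE1) in control samples and 2 higher (CIR1 and HDAC1) and 2 lower (EP300 and TLE1) in miR-25 samples. Of all tested genes, 27.2% in control and 27.9% in miR-25 samples were then called higher, and 12.5% and 17.6% lower. The cofactors did not stand apart from the panel in these counts. For miR-25 against control, HDAC2 (-0.04, SE 0.034, adjusted p = 0.858) had the smallest p on the lower side at 24 h, and at 48 h HDAC1 (0.08, SE 0.043, adjusted p = 0.532) had it on the higher and KAT2B (-0.14, SE 0.10, adjusted p = 0.540) on the lower side.

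Upstream of the nucleus, 21 of 24 further Notch genes were tested, and 2 rose and 0 fell over time in each treatment, where 2.94% of all tested genes rose, with medians of 0.29 and 0.22. FURIN, the protease that matures Notch receptors, rose by 1.11 (SE 0.11, adjusted p = 0.00277 by edgeR's quasi-likelihood test) on the log2 scale in control samples and by 1.08 (SE 0.12, adjusted p = 0.00664) in miR-25 samples. The receptor NOTCH3 rose by 1.44 (SE 0.25, adjusted p = 0.0157) in control samples, and NUMBL, a Notch antagonist, rose by 0.53 (SE 0.097, adjusted p = 0.0260) in miR-25 samples. NOTCH3 in miR-25 samples was at 1.18 (SE 0.31, adjusted p = 0.0757), and at 1.32 (SE 0.29, adjusted p = 0.00548) without 48 h replicate 1. Without 48 h replicate 1, 9 of the 21 were called higher and 1 lower in each treatment, the lower one being the receptor NOTCH2 in both, where the panel had 27.2% and 27.9% called higher and 12.5% and 17.6% lower. For miR-25 against control these 21 genes gave 0 calls at either time, with 0 and 3 at an unadjusted p under 0.05. Of all tested genes, 6.62% at 24 h and 12.5% at 48 h had such a p.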

How the data were processed

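The authors deposited raw counts per probe of the NanoString nCounter Stem Cell Panel, read on the nCounter Digital Analyser and handled in nSolver, for 12 LX-2 samples. Their later background correction, scaling and transfection-efficiency correction are not in these counts. Total gene counts were 107377 to 409581 per sample, and low totals widen the counting error of low genes. Names came from the panel sheet for 193 genes and from RefSeq for 6. Genes averaging 20 counts or more (136) were tested with edgeR 4.0.16 (R 4.3.3), quasi-likelihood test, totals as library sizes, Benjamini-Hochberg adjustment and a threshold of 0.05. For miR-25 against control all 12 samples entered one fit with the pair as a block, as the study takes ratios within replicates. Same-numbered samples of a time point deviated together (r = 0.285 to 0.560 at 24 h, 0.785 to 0.889 at 48 h). Replicates 2 and 3 also did so across treatments (r = 0.093 and 0.251 at 24 h, 0.605 and 0.679 at 48 h). Replicate 1 correlated negatively with both of them at either time, so part of this agreement is replicate 1 against the rest. For 48 h against 24 h the 6 samples of a treatment were fitted without a block. Alternatives used limma 3.58.1 (pseudocount 1), DESeq2 1.42.0, other scalings, filters, blocks and left-out samples. The fits were tested on simulated data with the same spread for all genes and neither a pair effect nor an outlying replicate. That test does not cover a departure such as replicate 1 at 48 h. All 6 genes are named throughout. Of the other cofactors, those called or, failing that, the one with the smallest p in each direction are named, except 1 result that is not reported here, of further Notch genes at most 2 per direction and time comparison, and of similar genes the nearest 2. The genes, lists and tests were chosen with earlier results of these data known.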

Additional observations from a re-analysis of the deposited data

How the results depend on the processing

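The direction of the RBPJ change over time was kept in 17 of 17 alternatives in both treatments, and it passed in 12 and 11 of them. The replicate number pairs no samples across times (r from -0.097 to 0.060 between same-numbered samples). With it as a block, 0 genes were called over time in either treatment, RBPJ included (-0.48, adjusted p = 0.0614, and -0.57, adjusted p = 0.0698, by edgeR's quasi-likelihood test). Leaving out each sample in turn gave 1 to 54 called genes in control samples and 0 to 62 in miR-25 samples, with 0 to 3 of the 6 genes among them, and the highest values came without replicate 1 at 48 h. The log2 change of MAML1 then ran from -0.32 to 0.23 in control and from -0.53 to 0.027 in miR-25 samples, and that of SNW1 from -0.021 to 0.090 in control samples.

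Scaling to positive control probes gave 26 called genes over time in control and 50 in miR-25 samples, of which 2 in each were RBPJ and CTBP2, and it turned HES1 (-0.085) in control samples and SNW1 in both (-0.73 and -0.42). Reference gene scaling turned SNW1 to -0.036 in control samples. DESeq2 called 22 genes over time in control samples, with SNW1 at -0.026, and 33 in miR-25 samples, 2 of them RBPJ and CTBP2 (adjusted p = 0.0426). TMM scaling and a fit of all 12 samples called 17 each in miR-25 samples, and no filter on low counts called 6. The cause of these differences was not tested.

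For miR-25 against control, 362 of 392 single-gene values kept their direction and stayed short of the threshold, 29 turned and 1 passed, SNW1 at 48 h with positive probe scaling (0.37, adjusted p = 0.0197 by edgeR's quasi-likelihood test), the 1 call of the 6 genes there. That scaling moved the median of all tested genes by 0.28 at 48 h and 0.16 over both times, called 51 and 32 genes, all higher, and called 1 gene for the difference of the times. It turned RBPJ, SNW1, CTBP2 and HES1 at 24 h (0.038, 0.049, 0.061 and 0.042), RBPJ, MAML1, MAML3 and CTBP2 at 48 h (0.17, 0.18, 0.088 and 0.20), RBPJ and CTBP2 over both times (0.10 and 0.11) and RBPJ, MAML1 and CTBP2 in the difference (0.13, 0.012 and 0.14). Reference gene scaling turned SNW1 (0.0024) and CTBP2 (0.013) at 24 h and called 0 genes at 48 h. The near-zero value of MAML3 over both times turned with TMM scaling (-0.0018), DESeq2 (-0.018), limma (-0.018) and without the replicate block (-0.0049), which also called 0 genes at 48 h. Fits of 1 time point alone called 3 genes at 24 h and 3 at 48 h, and no filter called 3 at 48 h. For the difference 1 gene was called with TMM scaling, the total without GAPDH, no filter and DESeq2. Leaving out each pair in turn called 0 to 3 genes at 24 h, 0 to 2 at 48 h and 0 to 4 over both times. The turned values then ran from -0.070 to 0.014 for SNW1, -0.034 to 0.026 for CTBP2 and -0.087 to 0.044 for HES1 at 24 h, from -0.10 to 0.22 for HES1 and -0.11 to 4.66e-04 for CTBP2 at 48 h, from -0.067 to 0.092 for MAML3 and -0.047 to 0.069 for HES1 over both times, and from -0.078 to 0.25 for HES1 and -0.10 to 0.0054 for CTBP2 in the difference.

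Multiplying or dividing the ratios by the transfected fraction, as the study did, moved 8 of 12 mean ratios by more than their SD, away from 1 by construction (RBPJ at 48 h from 0.924 to 0.522, HES1 from 1.05 to 1.89). Depth limits MAML3 at 48 h most, where replicate 1 held 15 and 19 counts.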
